A study of Homo sapiens with 6 samples.

Results

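The IL-6 family of cytokines and receptors was examined in U251 cells, a human glioblastoma line profiled by RNA-seq. The 8 genes were taken by name from the 58735 genes of the expression table: 4 ligands (IL6, LIF, IL11 and CLCF1) and 4 receptor subunits (IL6R, IL6ST, LIFR and OSMR). The NC group comprised 3 libraries from cells given sterile deionized water in the volume used for the cytokine, and the TNF-α group comprised 3 libraries from cells given recombinant human TNF-α, a pro-inflammatory cytokine, at 10 ng/mL. Cells of both groups were harvested after 24 h, and the labels describe the replicates of each group as biologically independent. Both groups derive from a single cell line, which contains no immune or stromal partner cells.

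Cytokines of this family share the signal-transducing subunit gp130, encoded by IL6ST. IL-6 and IL-11 engage gp130 through their own non-signalling receptors, whereas LIF and CLCF1 signal through gp130 paired with LIFR, and oncostatin M uses gp130 paired with LIFR or OSMR. The receptor complexes activate JAK kinases and STAT3, and STAT3 induces SOCS3, which restrains the signal. In glioblastoma, IL-6 and LIF are known as products of tumour cells and of their surroundings that act on glioma cells through STAT3.

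The libraries held 31992167 to 37897044 reads assigned to genes, and expression is given as FPKM (fragments scaled to gene length in kilobases and to a library total). TNF-α replicate 1 stood apart from TNF-α replicates 2 and 3. Genes longer than 8 kb took 28.8 to 29.1% of the reads in the 3 NC libraries and in TNF-α replicate 1, against 16.6% and 17.9% in TNF-α replicates 2 and 3, where ribosomal protein genes took 7.30% and 6.26% of the reads against 2.62 to 2.90% elsewhere. Of the 11 glioma and astrocyte markers, 8 reached 1 FPKM in at least 1 library, with a summed level of 637 to 690 FPKM in NC and 759 to 1239 FPKM in TNF-α libraries, while S100B, CHI3L1 and OLIG2 stayed under 1 FPKM. VIM made up most of that sum in the TNF-α libraries (325 to 362 FPKM in NC and 434 to 974 FPKM in TNF-α libraries), whereas GFAP was at 7.10 to 9.47 FPKM in NC and 1.58 to 2.60 FPKM in TNF-α libraries, and SOX2, SOX9 and EGFR were below their NC ranges in TNF-α replicates 2 and 3. Of the 9 microglia and macrophage markers, 8 were under 1 FPKM in all 6 libraries (summed level 0.869 to 1.23 FPKM in NC and 0.654 to 1.75 FPKM in TNF-α libraries), and PTPRC and TYROBP had 0 reads. The T cell, endothelial, epithelial, fibroblast and oligodendrocyte markers were all under 1 FPKM, and the 3 neuron markers summed to 4.45 to 4.82 FPKM in NC and 1.96 to 4.50 FPKM in TNF-α libraries. The part of library makeup and of these markers in the results below was not tested. In bulk RNA, more cells expressing a gene and more of its RNA in each cell cannot be told apart.

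LIF was the single member of the family that rose past the threshold after TNF-α, by 3.74-fold in mean FPKM. IL6, IL11 and CLCF1 lay higher in every TNF-α library than in any NC library without passing the test. On the receptor side, IL6R and LIFR lay lower in every TNF-α library, and IL6ST and OSMR were above the NC range in TNF-α replicate 1 and below it in TNF-α replicates 2 and 3. In the fit of all 6 libraries (limma on log2(FPKM + 1), Benjamini-Hochberg adjustment over the 12136 genes with at least 1 FPKM in at least 3 libraries), 7 of the 8 members were tested and 1 was called at an adjusted p under 0.05, beside 1.01% of all tested genes (0.717% higher and 0.297% lower). The groups did not overlap for 6 of the 8 members, of which 5 were tested, beside 30.1% of all tested genes (14.8% higher and 15.3% lower). An exact two-sided permutation test of 3 libraries against 3 cannot go below p = 0.1, the value it gave for these 6 members (0.133 after adjustment over 8 tests).

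**Figure D1:**
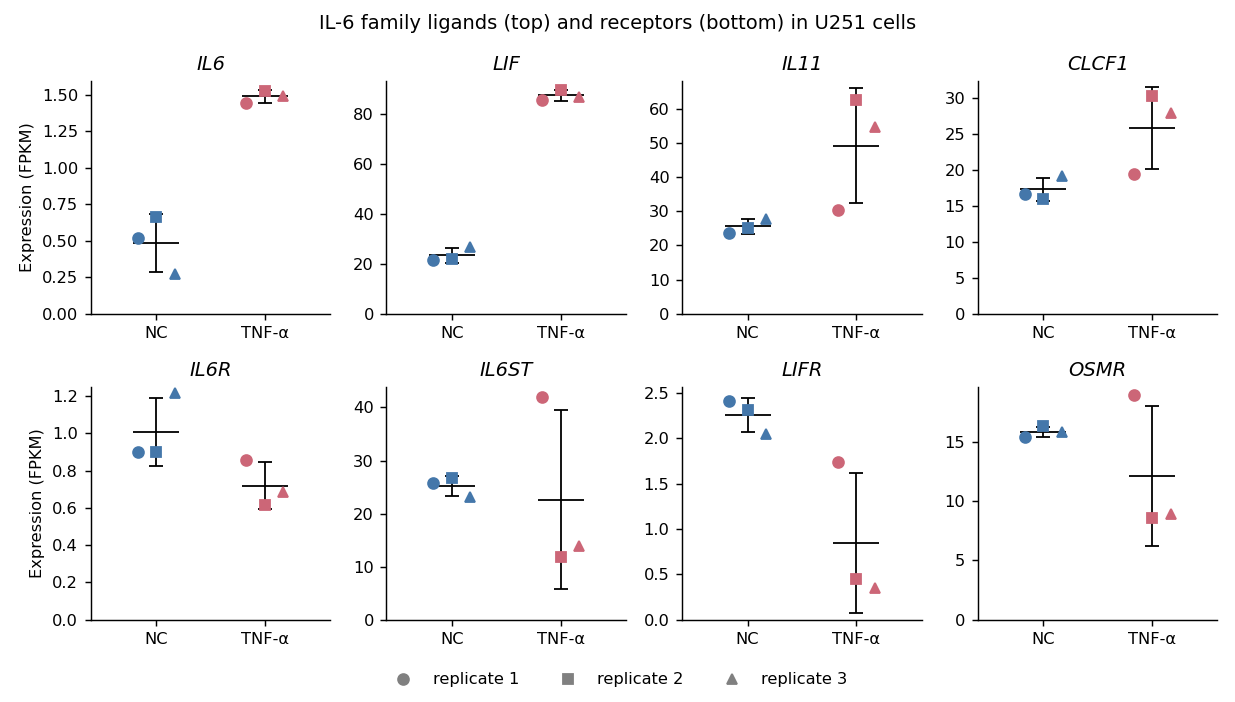
Expression (FPKM, linear axis from 0) of the 4 ligands in the top row and the 4 receptor subunits in the bottom row, with 1 point per library, the marker shape giving the replicate number, and bars for the mean and SD of 3 libraries. LIF and IL6 formed tight TNF-α groups above NC, whereas the 3 TNF-α libraries of IL6ST and OSMR lay on both sides of the NC libraries.

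LIF encodes leukemia inhibitory factor, a secreted ligand of the LIFR and gp130 pair. The gene lies at chr22:30240447-30246851 on the minus strand (GRCh38) and has a merged exon length of 3969 bases. Its level was 21.5, 21.9 and 26.7 FPKM in NC replicates 1 to 3 and 85.5, 89.6 and 86.8 FPKM in TNF-α replicates 1 to 3. All TNF-α libraries lay more than 3 times above the highest-expressing NC library, and they differed from one another by less than the NC libraries did. The means were 23.4 ± 2.89 FPKM in NC and 87.3 ± 2.10 FPKM in TNF-α (SD, n = 3 each), with a log2 fold change of 1.86 (SE 0.15, 95% confidence interval 1.51 to 2.22, limma adjusted p = 0.00593). These values rested on 2845 to 3403 reads in NC and 8370 to 10901 reads in TNF-α libraries. On the FPKM scale, the difference was of the same size in TNF-α replicate 1 (1.83 above the NC mean, log2) as in TNF-α replicates 2 and 3 (1.90 and 1.86). The library total in the FPKM was 0.925, 0.693 and 0.759 times the reads in genes in these 3 libraries. LIF held 10901, 9218 and 8370 reads out of 34726418, 37414474 and 31992167 reads in genes. The part of this scaling in the likeness of the 3 libraries was not tested. The fold change stayed between 1.81 and 1.96 when 1 library was left out. The call was lost without NC replicate 1 (limma adjusted p = 0.103), NC replicate 2 (0.103), NC replicate 3 (0.0515) or TNF-α replicate 3 (0.0687). It was also lost with TPM in place of FPKM (log2 fold change 1.39, adjusted p = 0.0811) and with the replicate number as a block in the fit (adjusted p = 0.0805). Exons of LIF-AS1 and AC004264.1 on the other strand cover 6.73% of its exonic bases, and those genes held at most 3 and 74 reads in any library. The use of strand in the counting is not given in the sources used here, so reads from such overlaps cannot be told apart.

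The tested genes whose pattern over the 6 libraries was most like that of LIF were RAP1GAP2 (Pearson r = 0.999) and SEMA7A (r = 0.998), taken from 30 genes with r over 0.99 on log2(FPKM + 1). RAP1GAP2, an activator of the GTPase activity of Rap1, was at 2.00, 2.08 and 2.33 FPKM in NC and 4.34, 4.34 and 4.24 FPKM in TNF-α libraries. SEMA7A, a membrane-anchored semaphorin, was at 21.2, 19.9 and 25.0 FPKM in NC and 62.2, 68.9 and 67.5 FPKM in TNF-α libraries. In both genes, as in LIF, the 3 TNF-α libraries agreed closely and none overlapped the NC group. These values describe the likeness of patterns, since all genes share the same 6 libraries.

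IL6 encodes interleukin-6, the founding cytokine of the family, and lies at chr7:22725884-22732002 on the plus strand (exon length 2069 bases). Its level was 0.522, 0.663 and 0.271 FPKM in NC replicates 1 to 3 and 1.44, 1.53 and 1.49 FPKM in TNF-α replicates 1 to 3, from 39, 45 and 18 reads and 96, 82 and 75 reads. Each TNF-α library lay above each NC library by more than 2-fold. The means were 0.485 ± 0.199 and 1.49 ± 0.0427 FPKM (SD, n = 3 each), 3.07-fold apart. On the log2(FPKM + 1) scale, which compresses a change at so low a level, the fold change was 0.75 (SE 0.14, 95% confidence interval 0.41 to 1.09) and missed the threshold (limma adjusted p = 0.0913). IL6 entered the test only through its TNF-α libraries. It passed under quantile normalisation (0.99, adjusted p = 0.0244), where 2 of the 7 members were called beside 1.52% of all tested genes. Exons of AC073072.1 and STEAP1B on the minus strand cover 20.7% of the exonic bases of IL6. AC073072.1 held 7 to 12 reads in NC and 13, 41 and 17 reads in TNF-α libraries.

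IL11 encodes interleukin-11 and lies at chr19:55364389-55370463 on the minus strand (exon length 2671 bases). It was at 23.6, 25.2 and 27.9 FPKM in NC replicates 1 to 3 and at 30.5, 62.7 and 54.6 FPKM in TNF-α replicates 1 to 3. TNF-α replicate 1 lay just above the NC range, and the other two TNF-α libraries lay far above it. The means were 25.6 ± 2.15 and 49.3 ± 16.8 FPKM (SD, n = 3 each), a 1.93-fold difference (log2 fold change 0.86, SE 0.28, 95% confidence interval 0.18 to 1.54, limma adjusted p = 0.195).

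CLCF1 encodes cardiotrophin-like cytokine factor 1, a secreted ligand of the family, and lies at chr11:67364168-67374177 on the minus strand (exon length 1975 bases). It was at 16.6, 16.0 and 19.1 FPKM in NC replicates 1 to 3 and at 19.4, 30.2 and 27.9 FPKM in TNF-α replicates 1 to 3. The lowest TNF-α library and the highest NC library were nearly equal, and the order of the TNF-α libraries was that of IL11. The means were 17.2 ± 1.65 and 25.8 ± 5.69 FPKM (SD, n = 3 each), with a log2 fold change of 0.54 (SE 0.20, 95% confidence interval 0.06 to 1.01, limma adjusted p = 0.195).

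The promoter sequences of IL6 and IL11, the only ligands with a RefSeq window here, are shown 5′ to 3′ with motif matches in capitals. Each covers the 250 bases before the RefSeq start (GRCh38.p14). Both windows held a motif for a factor class examined among the pathway genes. The IL6 window, chr7:22726950-22727199 on the plus strand, holds a match to the NF-κB consensus (GGGATTTTCC, 73 to 64 bases before the start) and to the C/EBP motif TTGCNNAA (TTGCACAA, 155 to 148 bases before the start). The IL11 window, chr19:55370464-55370713 on the minus strand, holds the AP-1 motif TGANTCA 96 to 90 bases before the start.
IL6: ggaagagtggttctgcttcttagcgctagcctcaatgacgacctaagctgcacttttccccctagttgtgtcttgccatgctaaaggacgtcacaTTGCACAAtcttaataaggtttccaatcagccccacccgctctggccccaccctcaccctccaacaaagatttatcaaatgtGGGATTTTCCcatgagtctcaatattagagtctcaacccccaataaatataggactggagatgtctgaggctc
IL11: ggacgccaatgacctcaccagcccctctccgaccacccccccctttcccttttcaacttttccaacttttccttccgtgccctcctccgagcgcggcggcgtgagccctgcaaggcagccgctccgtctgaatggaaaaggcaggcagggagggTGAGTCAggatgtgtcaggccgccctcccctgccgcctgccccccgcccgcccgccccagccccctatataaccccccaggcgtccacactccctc
The search covered both strands and the motif matches shown do not overlap one another. Among 35116 windows of the same length, 9.96% held the NF-κB consensus, 9.05% the C/EBP motif, 6.57% the AP-1 motif and 6.57% the STAT motif TTCNNNGAA. Windows were matched for 6 of the 8 members. None was available for LIF or CLCF1, so the promoters of these ligands were not searched. IL6ST held an NF-κB match, OSMR a C/EBP match, 2 of the 3 LIFR windows a STAT match, 1 of them with a C/EBP match as well, and IL6R none of the 4 motifs. A match is a description of the letters in the window and not a measured binding site.

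IL6ST encodes gp130, the subunit shared by the receptor complexes described above, and lies at chr5:55935095-55994993 on the minus strand (exon length 9292 bases). Its level was 25.8, 26.7 and 23.1 FPKM in NC replicates 1 to 3 and 42.0, 11.9 and 13.9 FPKM in TNF-α replicates 1 to 3. TNF-α replicate 1 exceeded every NC library, and TNF-α replicates 2 and 3 were below every NC library. The means, 25.2 ± 1.87 and 22.6 ± 16.8 FPKM (SD, n = 3 each), therefore describe no library of the TNF-α group, and the log2 fold change of -0.38 (SE 0.46, 95% confidence interval -1.48 to 0.73) did not pass the test (limma adjusted p = 0.528, exact permutation p = 0.4). Relative to the NC mean, the log2 values were 0.72, -1.03 and -0.82 in the 3 TNF-α libraries.

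OSMR, the signalling subunit that pairs with gp130 for oncostatin M, lies at chr5:38845858-38945596 on the plus strand (exon length 7174 bases) and followed the same library order. It was at 15.4, 16.3 and 15.8 FPKM in NC replicates 1 to 3 and at 18.9, 8.53 and 8.93 FPKM in TNF-α replicates 1 to 3. Again TNF-α replicate 1 was above the NC range and the other two were below it. The log2 fold change was -0.45 (SE 0.30, 95% confidence interval -1.17 to 0.27, limma adjusted p = 0.278). Exons of RICTOR on the minus strand cover 3.19% of the exonic bases of OSMR. RICTOR held 1605, 1660 and 1285 reads in NC and 1720, 356 and 418 reads in TNF-α libraries.

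LIFR, the receptor subunit for LIF, lies at chr5:38474963-38608354 on the minus strand and has the longest exon length of the family (11864 bases). It was at 2.41, 2.31 and 2.05 FPKM in NC replicates 1 to 3 and at 1.74, 0.455 and 0.347 FPKM in TNF-α replicates 1 to 3, from 780 to 1035 reads and from 664, 140 and 100 reads. All TNF-α libraries were below the NC range, TNF-α replicate 1 by the least. The means were 2.26 ± 0.190 and 0.848 ± 0.776 FPKM (SD, n = 3 each), with a log2 fold change of -0.89 (SE 0.28, 95% confidence interval -1.58 to -0.21) that missed the threshold (limma adjusted p = 0.195). LIFR-AS1, whose exons on the other strand cover 5.30% of the exonic bases of LIFR, held 1 to 16 reads.

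IL6R, the ligand-binding receptor of IL-6, lies at chr1:154405193-154469450 on the plus strand (exon length 6453 bases) and was the member left out of the fit, since only NC replicate 3 reached 1 FPKM. It was at 0.901, 0.898 and 1.22 FPKM in NC replicates 1 to 3 and at 0.858, 0.616 and 0.683 FPKM in TNF-α replicates 1 to 3, from 190 to 252 reads and from 178, 103 and 107 reads. TNF-α replicate 1 lay just under the NC range and the other two lay further below. The mean log2(FPKM + 1) was lower by a difference of -0.22 (exact permutation p = 0.1), and with the expression minimum lowered to 0.1 FPKM the limma adjusted p was 0.269.

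**Figure D2:**
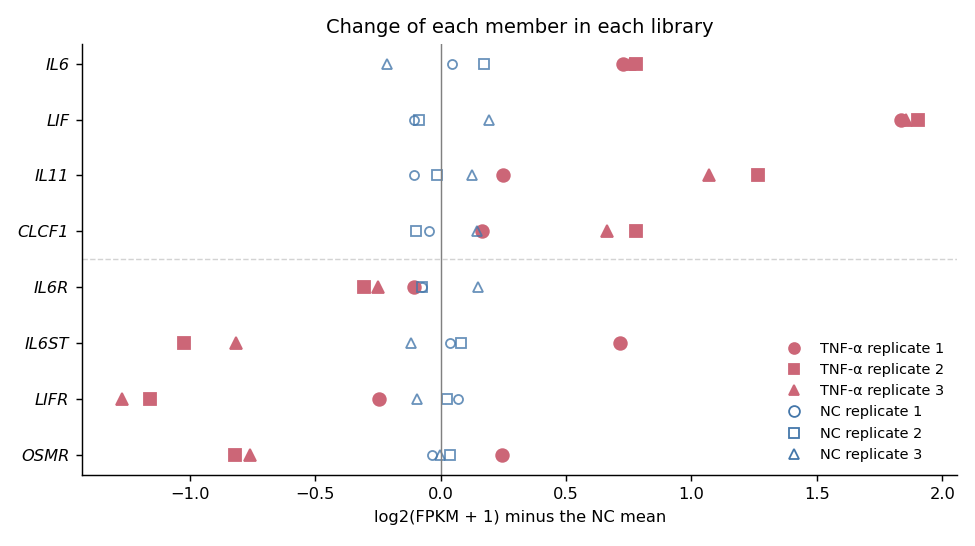
Log2(FPKM + 1) of each member minus its NC mean, with filled red markers for the TNF-α libraries, open blue markers for the NC libraries and marker shape for the replicate number, ligands above the dashed line and receptors below it. LIF and IL6 lay at the same distance from NC in all 3 TNF-α libraries, while IL6ST was at 0.72 in TNF-α replicate 1 and at -1.03 and -0.82 in TNF-α replicates 2 and 3.

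The order of levels within the family, compared per kilobase of gene length, differed between the groups. In NC, IL11 (mean 25.6 FPKM), IL6ST (25.2 FPKM) and LIF (23.4 FPKM) had overlapping library ranges, as did CLCF1 (17.2 FPKM) and OSMR (15.8 FPKM) below them. LIFR, IL6R and IL6 followed at 2.26, 1.00 and 0.485 FPKM, each separate from its neighbour. By mean FPKM in the TNF-α group, LIF was highest and IL11 second, with no overlap between them. In TNF-α replicate 1, however, IL6ST (42.0 FPKM) exceeded IL11 (30.5 FPKM), so the ranges of these genes overlapped. CLCF1, IL6ST and OSMR formed a run in which neighbours overlapped, and IL6, LIFR and IL6R formed another. LIF made up 35.0% ± 0.968 (SD, n = 3) of the summed FPKM of the 4 ligands in NC and 54.0% ± 7.42 in TNF-α libraries, and the sum was 66.7 ± 6.36 FPKM and 164 ± 24.4 FPKM. IL6 contributed 0.748% ± 0.346 and 0.920% ± 0.119 of that sum.

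Ratios between members within a library do not depend on how libraries are scaled against each other. They do carry shifts with gene length, and LIF (3969 bases) is shorter than IL6ST (9292) and LIFR (11864). In TNF-α replicates 2 and 3, the median tested gene around 4 kb lay 0.25 and 0.21 above the NC mean (log2 scale). Around 11 kb it lay at -0.65 and -0.57. In TNF-α replicate 1 both medians were 0.01. The part of gene length in the ratios was not tested. The FPKM of LIF divided by that of LIFR gave 8.92, 9.46 and 13.0 for the NC libraries against 49.1, 197 and 250 for the TNF-α libraries, so that every TNF-α library was above every NC library. The ratio of LIF to IL6ST was 0.833, 0.818 and 1.15 in NC and 2.03, 7.55 and 6.26 in TNF-α libraries, again without overlap. Among ligands, LIF to IL11 was 0.912 ± 0.0452 (SD, n = 3) in NC and 2.80, 1.43 and 1.59 in TNF-α libraries, so the TNF-α library with the smallest difference in IL11 had the largest ratio. Among receptors, the ratio of IL6ST to LIFR was 11.2 ± 0.438 and 30.0 ± 8.65 (SD, n = 3 each), without overlap, and that of IL6ST to OSMR was 1.59 ± 0.113 and 1.72 ± 0.437, with overlap. Of 11 ratios examined, 7 reached the smallest exact permutation p of 0.1 (adjusted p = 0.157 over the 11), and IL6ST to OSMR gave p = 0.9.

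Role and gene length coincided within the family, since the ligands had 1975 to 3969 exonic bases and the receptors 6453 to 11864. In TNF-α replicates 2 and 3, the median tested gene under 4 kb lay 0.57 and 0.48 above the NC mean on the log2 scale, and the median gene of 6 kb and over lay at -0.42 and -0.38. In TNF-α replicate 1 the same medians were -0.03 and 0.00. Against these medians, LIF was at 1.90 and 1.86 in TNF-α replicates 2 and 3, IL11 at 1.27 and 1.07, and IL6 and CLCF1 at 0.66 to 0.78, while the median of the length bin around 2 kb was 0.86 and 0.73. In TNF-α replicate 1, where that median was -0.05, IL6 lay at 0.73 and CLCF1 at 0.16. The log2(FPKM + 1) scale compresses the change of IL6 at its low level. The bin holds tested genes of all levels, so its median is an unlike measure for IL6. For IL6, IL11, CLCF1 and the receptors, a difference by role and a difference by gene length cannot be told apart in TNF-α replicates 2 and 3.

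**Figure D3:**
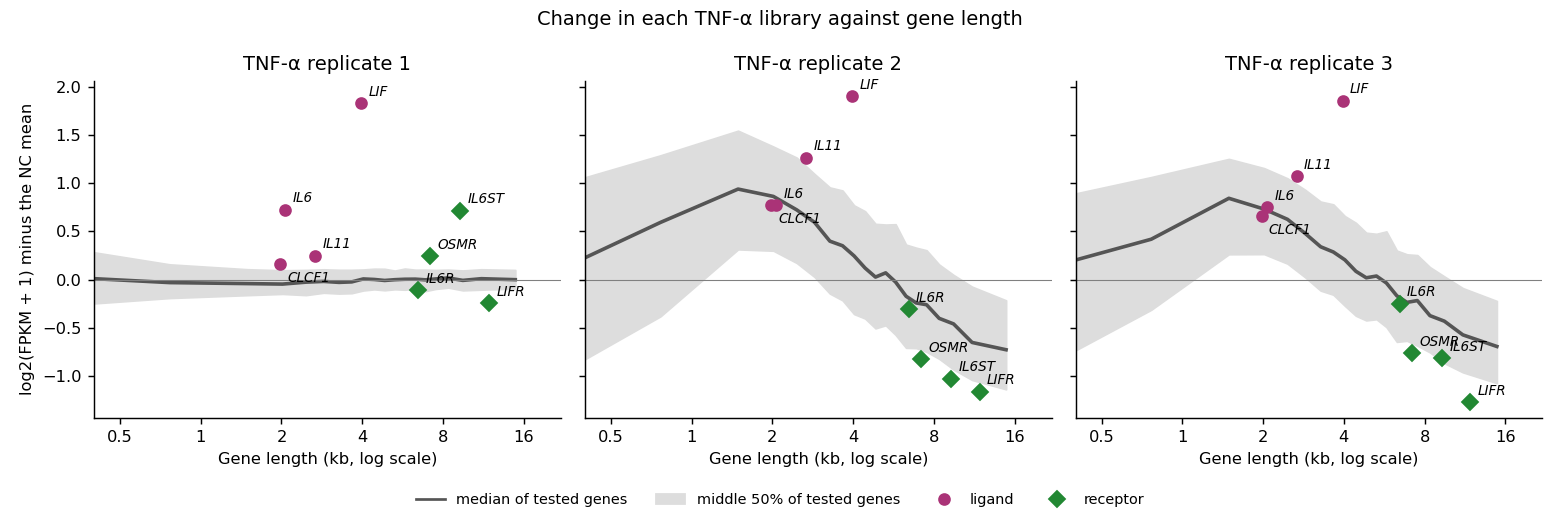
Log2(FPKM + 1) minus the NC mean against gene length (kb, log scale) in each TNF-α library, with the line and band giving the median and the middle 50% of all tested genes in 20 length bins, circles for ligands and diamonds for receptors. The line was flat in TNF-α replicate 1 and, beyond the shortest genes, sloped downward in TNF-α replicates 2 and 3, where LIFR and OSMR lay under the lower edge of the band, IL6ST lay under it in TNF-α replicate 2 and just inside it in TNF-α replicate 3, and LIF lay far above the band.

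The calls for the family depended on which TNF-α libraries entered the fit. Without TNF-α replicate 1, all 7 tested members passed, the 4 ligands higher and the 3 receptors lower, beside 79.4% of all tested genes (42.6% higher and 36.8% lower), so a call in that fit was the common outcome. With TNF-α replicate 1 alone against the NC group, where the lone library was assumed to vary like the NC libraries, 2 members passed beside 6.03% of all tested genes. These were LIF (log2 fold change 1.83, adjusted p = 0.000988) and IL6ST, which was higher (0.72, adjusted p = 0.0115). In the same fit IL6 was at 0.73 (adjusted p = 0.104), IL11 at 0.25 (0.243), CLCF1 at 0.16, OSMR at 0.24 and LIFR at -0.25 (0.303). IL6ST and OSMR thus had opposite signs in the fits with and without TNF-α replicates 2 and 3.

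A per-library correction for gene length left 1 member called, LIF, at 1.71 (adjusted p = 0.00437), beside 1.35% of all tested genes. After correction for GC content and length, LIF was at 1.49 (adjusted p = 0.0135), beside 2.39% of all tested genes. The other ligands were then at 0.58 for IL6, 0.30 for IL11 and 0.01 for CLCF1, and the receptors at 0.17 for IL6ST, -0.35 for LIFR and -0.12 for OSMR, none of them past the threshold. Both the ligand values and the receptor values were thus nearer to 0 than in the uncorrected fit.

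**Figure D4:**
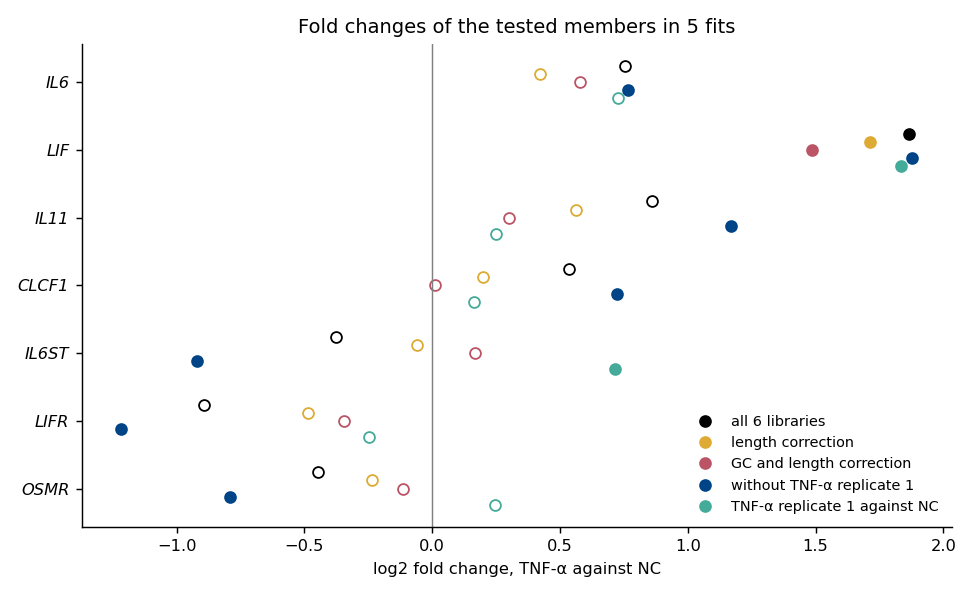
Log2 fold change of the 7 tested members in 5 fits, where a filled point marks an adjusted p under 0.05 and an open point does not. LIF was filled in all 5 fits and ranged from 1.49 to 1.88, whereas IL6ST ranged from -0.92 without TNF-α replicate 1 to 0.72 with that library alone.

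Of 80 other genes of the pathway in 8 lists, 58 were tested, 7 passed as higher and 0 as lower, beside 0.717% and 0.297% of all tested genes. The median log2 fold change of the 58 genes was 0.24, against 0.04 over all tested genes. An unadjusted p under 0.05 was obtained for 27 of the 58, beside 24.2% of all tested genes. The 7 called genes were EBI3, STAT5A, JUNB, ZC3H12A, FOSL1, NFKB2 and RELB, and each also passed in the comparison of TNF-α replicate 1 alone with NC, where 18 of the 58 were called beside 6.03% of all tested genes. The count was 49 of 58 without TNF-α replicate 1, beside 79.4% of all tested genes, and 0 when any other single library was left out.

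The other ligands were mostly silent. OSM and IL31 had 0 reads in all libraries, where 3 reads, the limit that a count of 0 allows, would equal 0.0393 to 0.0584 FPKM for OSM. CNTF reached 0.805 FPKM at most, and CTF1 and IL27 stayed at or under 0.112 FPKM. EBI3, a subunit of the cytokines IL-27 and IL-35, was at 0.0862, 0.285 and 0.0970 FPKM in NC and at 1.26, 1.71 and 2.02 FPKM in TNF-α libraries, from 4 to 12 reads and from 52 to 63 reads. No libraries of the groups overlapped, and the log2 fold change was 1.20 (SE 0.16, limma adjusted p = 0.0316), with EBI3 entering the test only through its TNF-α libraries.

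Of the 4 other receptors, 2 were tested, none passed and 1 had an unadjusted p under 0.05 (limma), beside 24.2% of all tested genes. IL11RA, the ligand-binding receptor of IL-11, had 0 to 7 reads and at most 0.0632 FPKM in any library, and CNTFR, the receptor through which CLCF1 acts, had at most 2 reads. The ligand-binding receptors of IL-11 and CLCF1, 2 abundant ligands, were thus near the limit of detection, while the shared subunit IL6ST was expressed. IL27RA, which pairs with gp130, was at 2.46, 2.49 and 2.62 FPKM in NC and at 4.49, 7.80 and 7.19 FPKM in TNF-α libraries, without overlap (log2 fold change 1.06, adjusted p = 0.0937). IL31RA, which pairs with OSMR, was at -0.26 (adjusted p = 0.281).

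All 11 genes of JAK-STAT signalling were tested, with 1 call, beside 1.01% of all tested genes. Their median log2 fold change was -0.33. It was 0.09 with TNF-α replicate 1 alone against NC, -0.43 without that library and -0.15 after GC and length correction. STAT5A, a transcription factor activated by JAK kinases, was at 2.63, 3.04 and 2.63 FPKM in NC and at 7.72, 10.3 and 10.3 FPKM in TNF-α libraries. The groups were well separated (log2 fold change 1.46, SE 0.15, limma adjusted p = 0.0146). STAT3, the principal factor of the pathway, was named after its values were seen, with means of 31.8 ± 1.16 and 34.3 ± 2.79 FPKM (SD, n = 3 each) and a log2 fold change of 0.10 (95% confidence interval -0.22 to 0.42, adjusted p = 0.552).

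Of the 9 feedback inhibitors, 7 were tested, none passed (limma, median -0.11) and 3 had an unadjusted p under 0.05, beside the same 24.2%. SOCS1, an inhibitor of JAK kinases, was at 1.86, 1.85 and 1.63 FPKM in NC and at 2.76, 5.80 and 5.46 FPKM in TNF-α libraries, without overlap (log2 fold change 0.98, adjusted p = 0.164), and PIAS3, an inhibitor of STAT3, was at -0.49 (adjusted p = 0.195). SOCS3, also named after its values were seen, is the inhibitor induced by gp130 signalling, and its means were 10.5 ± 1.25 and 9.60 ± 0.462 FPKM (SD, n = 3 each), with overlapping groups (log2 fold change -0.11, 95% confidence interval -0.44 to 0.22, adjusted p = 0.532).

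Of 26 STAT3 target genes, 15 were tested, with 1 call, beside 1.01% of all tested genes. Their median was 0.54, and 0.28 after GC and length correction. JUNB, a subunit of AP-1 that other pathways also induce, was at 19.6, 20.0 and 20.8 FPKM in NC and at 69.4, 136 and 118 FPKM in TNF-α libraries (log2 fold change 2.31, SE 0.26, limma adjusted p = 0.0201), and exons of HOOK2 on the other strand cover 14.2% of its exonic bases. Among the 10 regulators of IL6 mRNA stability, all tested, ZC3H12A was the 1 gene called, beside the same 1.01%. It encodes Regnase-1, a ribonuclease that degrades IL6 mRNA, and was at 3.52, 3.44 and 4.21 FPKM in NC and at 10.1, 11.0 and 11.8 FPKM in TNF-α libraries (log2 fold change 1.34, SE 0.13, adjusted p = 0.0116). For both genes, every TNF-α library was above every NC library.

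The 4 genes of receptor shedding, the proteolysis that releases soluble IL-6 receptor, were all tested, none passed and 2 had an unadjusted p under 0.05 (limma), again beside 24.2% of all tested genes. ADAM17, a sheddase, was at 5.44, 5.78 and 5.13 FPKM in NC and at 6.31, 1.26 and 1.45 FPKM in TNF-α libraries. TNF-α replicate 1 and TNF-α replicates 2 and 3 thus lay on opposite sides of NC, as for IL6ST. The log2 fold change of ADAM17 was -0.91 (limma adjusted p = 0.198). Exons of IAH1 and AC073195.1 on the other strand cover 13.6% of its exonic bases. RHBDF2, a regulator of ADAM17, was at 0.74 (adjusted p = 0.0611).

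Of the 10 transcription factors known to act on the IL6 promoter, 9 were tested, with 3 calls, beside 1.01% of all tested genes. Their median was 0.74, and 0.52 after GC and length correction. RELB, an NF-κB subunit, was at 6.31, 5.90 and 8.34 FPKM in NC and at 46.8, 130 and 105 FPKM in TNF-α libraries (log2 fold change 3.48, SE 0.39, limma adjusted p = 0.0185). NFKB2, the partner of RELB, had means of 17.2 ± 1.45 and 117 ± 40.2 FPKM (SD, n = 3 each) and a log2 fold change of 2.63 (adjusted p = 0.0173). FOSL1, a subunit of AP-1, had means of 168 ± 12.1 and 356 ± 21.7 FPKM (SD, n = 3 each) and a log2 fold change of 1.08 (adjusted p = 0.0498). After GC and length correction NFKB2 and RELB were at 2.24 and 2.86 and remained called, whereas FOSL1 was at 0.52 (adjusted p = 0.181), EBI3 at 0.66 (0.158) and ZC3H12A at 0.78 (0.113).

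**Figure D5:**
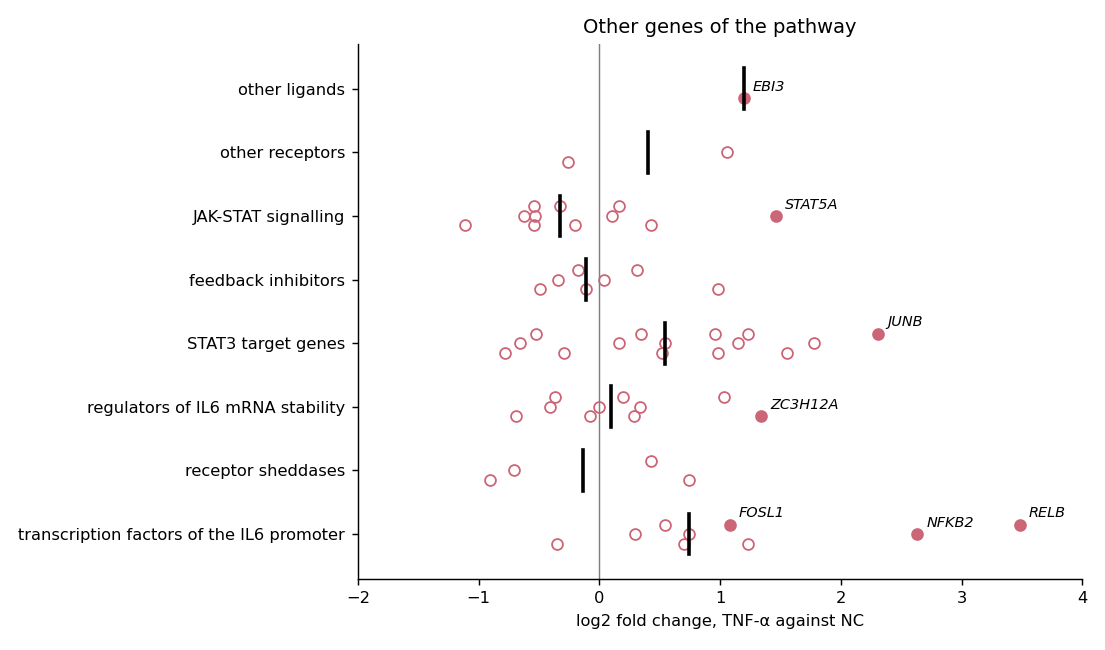
Log2 fold change of the 58 tested pathway genes by list, with filled and named points for the 7 genes with an adjusted p under 0.05, open points for the others and a vertical bar for the median of each list. The called genes lay on the positive side, from 1.08 for FOSL1 to 3.48 for RELB. The median of the JAK-STAT list was -0.33 in this fit of all 6 libraries, and 0.09 with TNF-α replicate 1 alone against NC.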

How the data were processed

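RNA was isolated from U251 cells with TRIzol and a column kit, and libraries were made from poly(A)-selected RNA. The submitters' processing notes list, among others, HISAT2 2.0.5, StringTie 1.3.3b, featureCounts 1.5.0 and GATK 3.7. The strand setting of the counting is not given in the sources used here. The authors deposited FPKM per gene and library. All 58735 genes matched GENCODE release 29 on GRCh38. Values in 6 additional columns belonged to none of the 6 libraries and were not used here. FPKM times gene length gave whole reads for 100% of values (tolerance 0.01), which recovered the reads. The library total inside the FPKM was 0.925 to 0.959 times the reads in genes in NC and TNF-α replicate 1, and 0.693 and 0.759 times in TNF-α replicates 2 and 3. Limits on reads cover counting error only. The confidence intervals of the fold changes came from the standard errors of the limma fit, which include the spread between libraries.

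Log2(FPKM + 1) was tested across the 12136 genes with at least 1 FPKM in at least 3 of 6 libraries with limma 3.58.1 (R 4.3.3; lmFit, eBayes with trend, two-sided, Benjamini-Hochberg adjustment, threshold 0.05). The fit was tested on simulated counts with the same dispersion for all genes and no length or GC shift between libraries. That setting lacks the different makeup of TNF-α replicates 2 and 3. Exact permutation tests listed every split of the 6 libraries into 3 and 3, and their p-values were adjusted with scipy 1.17.1. Promoters came from RefSeq GRCh38.p14. The members, pathway lists and markers were chosen with earlier results of these data known. All members were named, with every called gene of each pathway list, or otherwise its 2 largest fold changes, and the 3 genes most like each called member. Values of 2 genes these rules or lists cover are not reported here. Alternatives covered pseudocounts, filters, TPM, quantile and median scaling, variance settings, limma-voom on recovered reads, a replicate block, length and GC corrections and leaving out libraries. No set test was run.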

Additional observations from a re-analysis of the deposited data

How the results depend on the processing

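Over 22 alternatives, LIF kept its direction (log2 fold change 1.39 to 1.96, adjusted p 1.07e-05 to 0.103) and its call in 14. IL6, IL11, CLCF1 and LIFR kept their direction in all 22. IL6ST reversed after GC and length correction (0.17, with and without the replicate block) and without TNF-α replicates 2 and 3 (0.72), as did OSMR in the latter (0.24). The cause of the reversals was not tested.

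Same-numbered NC and TNF-α libraries did not deviate together from their group means (r = -0.0144, -0.178 and 0.124). With 3 libraries a group and TNF-α replicate 1 apart from the others, this check cannot exclude that the numbers pair them. The replicate block called 24 genes against 123 without it, 0 members (LIF adjusted p = 0.0805) and 0 of the 7 pathway calls. With the block, length correction called 38 genes, 0 members and 3 pathway genes, and GC and length correction, the latter combination chosen after seeing the data, called 48, 0 and 3. GC and length correction without the block called 290 genes. TPM put the median log2 fold change of all genes at -0.42, against 0.04 with FPKM, and called 58 genes, 0 members (LIF 1.81 above that median, adjusted p = 0.0811) and 4 pathway genes. No filter called 58 genes and 2 pathway genes, over more genes tested, and quantile normalisation 185 genes and 2 members. Leaving out 1 library gave 10 to 9630 genes, 0 to 7 members and 0 to 49 pathway genes, the upper ends without TNF-α replicate 1. Without TNF-α replicates 2 and 3 the counts were 732, 2 and 18. With 3 libraries a group, no member could go below an exact permutation p of 0.1.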
